A study of Mus musculus with 8 samples.

Results

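Fgf3, Fgf4, Fgf15 and Ccnd1 lie next to each other on mouse chromosome 7, and they were followed here in RNA and in open chromatin of early T-lineage progenitors with or without the transcription factors TCF1 and LEF1. The 4 genes were taken by name from the 24538 gene IDs of the RNA tables. All peaks of open chromatin in a 400 kb window around them (mm10) were taken by position. These peaks merged into 71 regions, of 134830 regions on the standard chromosomes. The genes were chosen by their TPM values in these same libraries, in which Fgf3 and Ccnd1 differed in opposite directions between the genotypes, so their own RNA differences are described without a test.

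The cells came from bone marrow LSK cells, a fraction rich in blood stem and progenitor cells, of 2 kinds of mice, both carrying a tamoxifen-inducible CreER. The knockout group, named Tcf1Lef1KO in the labels, carried floxed Tcf7 (which encodes TCF1) and floxed Lef1 alleles, and the control group was wild type at both genes. Both were cultured on OP9-DL1, a stromal line bearing the Notch ligand DLL1, received 4-OH tamoxifen on days 3 to 5, and were sorted on day 7 as lineage-negative, CD8-negative, CD4-negative, CD44-high, CD25-negative, c-Kit-positive DN1 cells. There were 2 knockout and 2 control libraries of RNA and the same numbers from ATAC-seq, which reports open chromatin through transposase insertions. No source used here gives the animals' ages, the promoter of the CreER, or whether the replicates were separate animals or cultures, so the p-values below measure only the spread between these libraries, which may be technical.

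Fibroblast growth factors (FGFs) are secreted proteins that act through receptor tyrosine kinases and the ERK pathway. FGF3 and FGF4 act on nearby cells and are best known from embryonic development, whereas FGF15 is a hormone of the gut that restrains bile acid synthesis in the liver. Fgf3 is also known as Int-2, a gene that mouse mammary tumour virus activates by inserting beside it. Fgf4 has been described as a target of LEF1 in the mouse tooth germ. Ccnd1 encodes cyclin D1, which pairs with the kinases CDK4 and CDK6 to inactivate the retinoblastoma protein and release E2F-driven entry into DNA replication. It is a much-cited target of Wnt signalling through TCF/LEF factors.

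The targeted Tcf7 RNA stood at 13.2 and 12.4 TPM in the knockout libraries and at 518 and 510 TPM in the control libraries (TPM is a level per transcript length). Lef1 RNA was low in both groups, at 1.46 and 1.57 TPM in knockout and 1.66 and 1.10 TPM in control, and so does not check its deletion. Among the markers of the sort, Kit and Cd44 were abundant in every library. Kit was nevertheless lower in knockout, at 157 TPM in each library against 251 and 238 TPM in control, while Cd44 overlapped. Il2ra, the gene of CD25, stood at 0.658 and 0.393 TPM in knockout and at 136 and 133 TPM in control, although both groups were gated as CD25-negative. The 13228 genes with a mean of at least 1 TPM were fitted together with limma, and at a Benjamini-Hochberg adjusted p under 0.05 14.7% of them were lower and 25.2% higher in knockout. After median-ratio scaling of the libraries the split was 2391 lower and 2575 higher, against 1940 lower and 3331 higher as deposited.

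The order along the chromosome is Fgf3, Fgf4, Fgf15, Oraov1 and Ccnd1, with Ccnd1 alone transcribed from the minus strand, towards the others. Fgf3 occupies chr7:144838612-144843348, Fgf4 chr7:144861386-144865245, Fgf15 chr7:144896532-144900951 and Ccnd1 chr7:144929931-144939925. The start of Fgf3 lies 101 kb from that of Ccnd1, and the starts of Fgf4 and Fgf15 lie between them, 22.8 kb and 57.9 kb downstream of the Fgf3 start. Oraov1, which RefSeq names Lto1, ends inside the last 818 bases of the Ccnd1 model. Since the sources used here do not say whether strand was used in counting, reads from that overlap cannot be told apart.

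The promoters, 250 bases before to 50 after the gene start, are shown for Fgf3 and Fgf4, neighbours of which one had high and the other little RNA in control cells. They are credited to RefSeq (GRCm38.p6, plus strand). RefSeq sequences were matched for 2 of the 4 genes. Capitals mark the letters searched for on both strands: CTTTGAT or CTTTGAA or CTTTGTT for TCF/LEF factors, AGATAA or TGATAA for GATA factors, TGTGGT for RUNX factors, CCGGAA or AGGAAG for ETS factors, and CAGCTG or CAGGTG for E-box factors.
Fgf3, chr7:144838362-144838661: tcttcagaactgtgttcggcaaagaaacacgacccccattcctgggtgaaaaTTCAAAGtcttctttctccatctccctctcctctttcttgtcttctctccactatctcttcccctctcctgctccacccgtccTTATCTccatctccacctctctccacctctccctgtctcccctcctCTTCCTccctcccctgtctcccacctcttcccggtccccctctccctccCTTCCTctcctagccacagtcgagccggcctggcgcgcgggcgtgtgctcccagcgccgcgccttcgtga
Fgf4, chr7:144861136-144861435: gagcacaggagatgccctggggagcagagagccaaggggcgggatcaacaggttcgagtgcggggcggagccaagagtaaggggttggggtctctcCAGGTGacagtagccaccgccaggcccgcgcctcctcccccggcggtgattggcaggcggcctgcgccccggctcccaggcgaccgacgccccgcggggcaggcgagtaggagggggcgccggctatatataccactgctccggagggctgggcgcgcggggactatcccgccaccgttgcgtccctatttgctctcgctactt

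The Fgf3 promoter held 1 TCF/LEF match, CTTTGAA on the opposite strand 198 bases before the start, a class of match found in 13.9% of 32851 RefSeq promoters of the same length. It also held 1 GATA match (18.6% of promoters) and 2 ETS matches (45.2%), all on the opposite strand, and no RUNX or E-box match. These Fgf3 matches all lie before the start, and no region of open chromatin overlapped that part of the promoter. In the Fgf4 promoter there was 1 E-box match (32.9% of promoters) and none of the others. A match describes letters and not a bound site. The Fgf3 promoter is a long run of C and T, with a pyrimidine share of 75.0%, a level that 0.107% of the promoters reach, and it has 14 CpG dinucleotides. The Fgf4 promoter has a pyrimidine share of 46.3% and 28 CpG dinucleotides, against medians of 49.7% and 7.

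Of the 4 genes, Fgf3 had the highest TPM in control cells and a much lower one in knockout cells. It stood at 12.5 and 11.4 TPM in the knockout libraries and at 146 and 151 TPM in the control libraries. Both knockout libraries lay far below both control libraries, and the replicates differed little within each group. The means were 11.97 ± 0.75 TPM in knockout and 149 ± 3.5 TPM in control (SD, n = 2 each), a 12.4-fold lower level and a difference of −3.53 in mean log2(TPM + 1), the 10th lowest of the 13228 tested genes. The deposited mean coverage over the gene was 15.6 and 14.4 reads per base in knockout and 170 and 156 in control. By mean TPM, Fgf3 ranked 8157th of all gene IDs in knockout and 762nd in control.

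Ccnd1 differed in the opposite direction. It stood at 42.0 and 45.6 TPM in the knockout libraries and at 19.0 and 17.1 TPM in the control libraries. The groups did not overlap, and the lower knockout library was above the higher control library. The means were 43.8 ± 2.5 TPM in knockout and 18.1 ± 1.3 TPM in control (SD, n = 2 each), 2.42-fold higher in knockout and a difference of 1.23 on the log2(TPM + 1) scale. In the order of differences Ccnd1 was the 286th highest of the tested genes. In control the level of Fgf3 was above that of Ccnd1, and in knockout the order was turned round.

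Fgf4 and Fgf15 were near or at 0 in every library. Fgf4 was listed at 0.649 and 0.139 TPM in knockout and at 0.464 and 0.174 TPM in control, with overlapping groups. Fgf15 was listed at 0 and 0.359 TPM in knockout and at 0 and 0.165 TPM in control, again with overlap. Their deposited coverage was at most 0.810 and 0.451 reads per base, so a change at these levels was not detectable. In both genotypes the order of levels between these genes and the others was the same, with Fgf4 and Fgf15 under 1 TPM and not separable from each other.

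**Figure D1:**
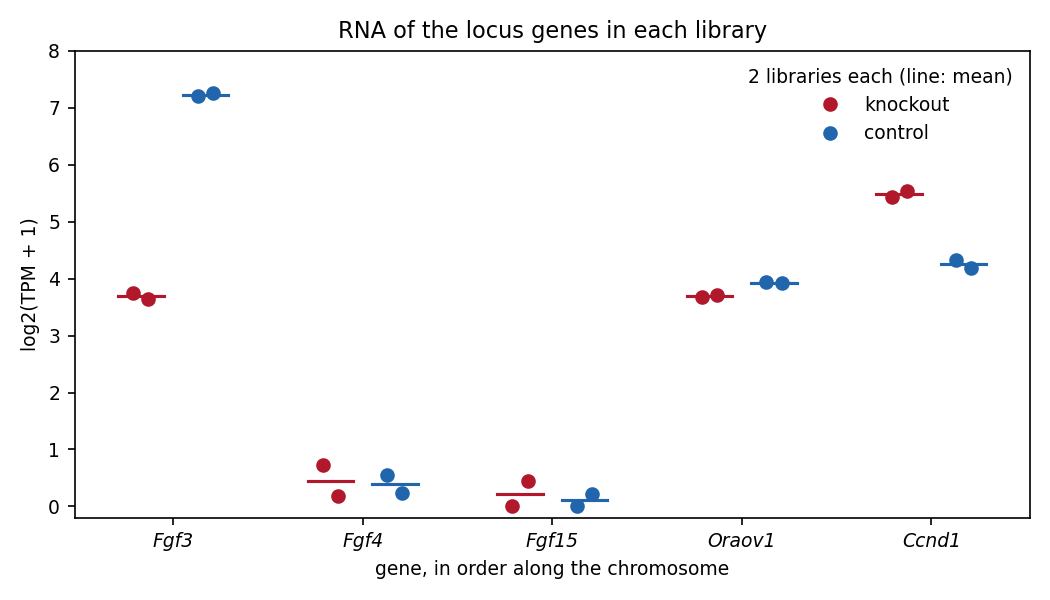
RNA of the locus genes as log2(TPM + 1), with a point for each of the 2 knockout (left, red) and 2 control (right, blue) libraries and a line at the mean. Fgf3 is far lower and Ccnd1 higher in both knockout libraries, Fgf4 and Fgf15 lie near 0 in all 4, and Oraov1 stands at 11.8 to 14.3 TPM.

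Oraov1, a gene of ribosome maturation that sits between Fgf15 and Ccnd1, shows what the expressed neighbour in the middle did. It stood at 11.8 and 12.1 TPM in knockout and at 14.3 and 14.2 TPM in control. The knockout libraries were slightly lower, and the difference of −0.23 on the log2 scale did not pass the test (SE 0.10, limma adjusted p = 0.137). Ano1, a chloride channel gene at the other edge of the window, was at 0 TPM in each knockout library, against 0.239 and 0 TPM in control.

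Within 1 Mb of either side of the window, 9 of 19 other gene models were tested, of which 3 were lower, 1 was higher and 5 were not called, or 33.3% lower and 11.1% higher against 14.7% and 25.2% of all tested genes. Their median log2 difference was −0.21, against 0.09 over all tested genes. The higher one was Cttn, which encodes the actin-binding protein cortactin, at 42.7 and 34.9 TPM in knockout and 18.0 and 19.7 TPM in control (difference 0.998, SE 0.12, limma adjusted p = 0.00280). Its start lies 368 kb from that of Fgf3, beyond Fadd and Ppfia1. Fadd, the adaptor of death receptors, stood at 12.3 TPM in both knockout libraries and at 10.5 and 10.8 TPM in control and did not pass (adjusted p = 0.209). Ppfia1, a liprin of focal adhesions, was lower by a small amount, at 60.2 and 61.3 TPM in knockout and 69.5 and 71.3 TPM in control (difference −0.21, SE 0.055, limma adjusted p = 0.0314), and whichever of the 4 libraries was left out the call was lost (adjusted p = 0.0806 to 0.119), as it was with the replicate number as a block (0.0574). The other 2 lower genes, Osbpl5 and Mrgpre, start 1097 kb and 1054 kb from Fgf3, with differences of −0.71 and −1.32. The Osbpl5 call was lost without control replicate 2 (limma adjusted p = 0.0575). On the far side of Ccnd1 the nearest expressed gene was Tpcn2, an endolysosomal channel gene, at 8.82 and 7.64 TPM in knockout and 7.83 and 9.14 TPM in control (adjusted p = 0.859).

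**Figure D2:**
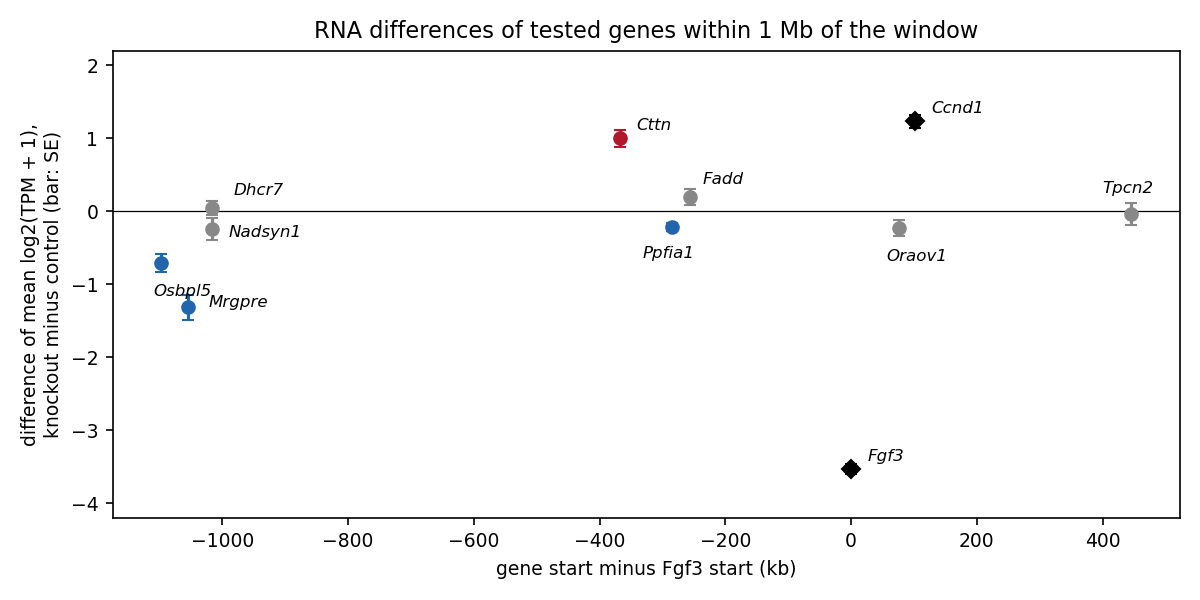
Difference of mean log2(TPM + 1), knockout minus control, for each tested gene against the distance of its start from that of Fgf3 in kb, with bars of 1 SE from the fit over all genes. Fgf3 at −3.53 and Ccnd1 at 1.23 (black diamonds) are 101 kb apart, with Oraov1 near 0 between them.

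By the distance between log2(TPM + 1) profiles over the 4 RNA libraries, the genes most like Fgf3 were Arpp21 (distance 1.21), a neuronal phosphoprotein gene, Dpp4 (1.25), which encodes the surface peptidase CD26, and Ccl5 (1.496), a chemokine gene. Dpp4, for example, stood at 20.7 and 23.6 TPM in knockout and at 174 and 180 TPM in control. These distances were larger than those of the genes most like Ccnd1, namely Igsf8 (0.215), Camk1 (0.254) and Rrp12 (0.256). The search covered 12034 tested named genes.

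The peak lists show whether the chromatin around the genes was open. A region was called control-only when both control lists and neither knockout list held a peak there, knockout-only in the opposite case, and shared when all 4 lists held one. Each peak has the authors' own −log10 q and fold enrichment over local background, which describe it within its list. The lists carry no counts and their depth is unknown, so values of different lists are set side by side without a test. Each list held 52 to 55 peaks in the window.

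Of the 71 regions in the window, 4 were knockout-only (5.63%, against 6.63% of all regions), 6 were control-only (8.45%, against 4.79%) and 40 were shared (56.3%, against 59.1%). The remaining 21 were in other combinations of lists. By nearest gene start, the control-only regions divided into 3 at Fgf3, 2 at Ccnd1 and 1 at Ano1, and the knockout-only regions into 2 at Fgf15, 1 at Ccnd1 and 1 at Ano1.

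**Figure D3:**
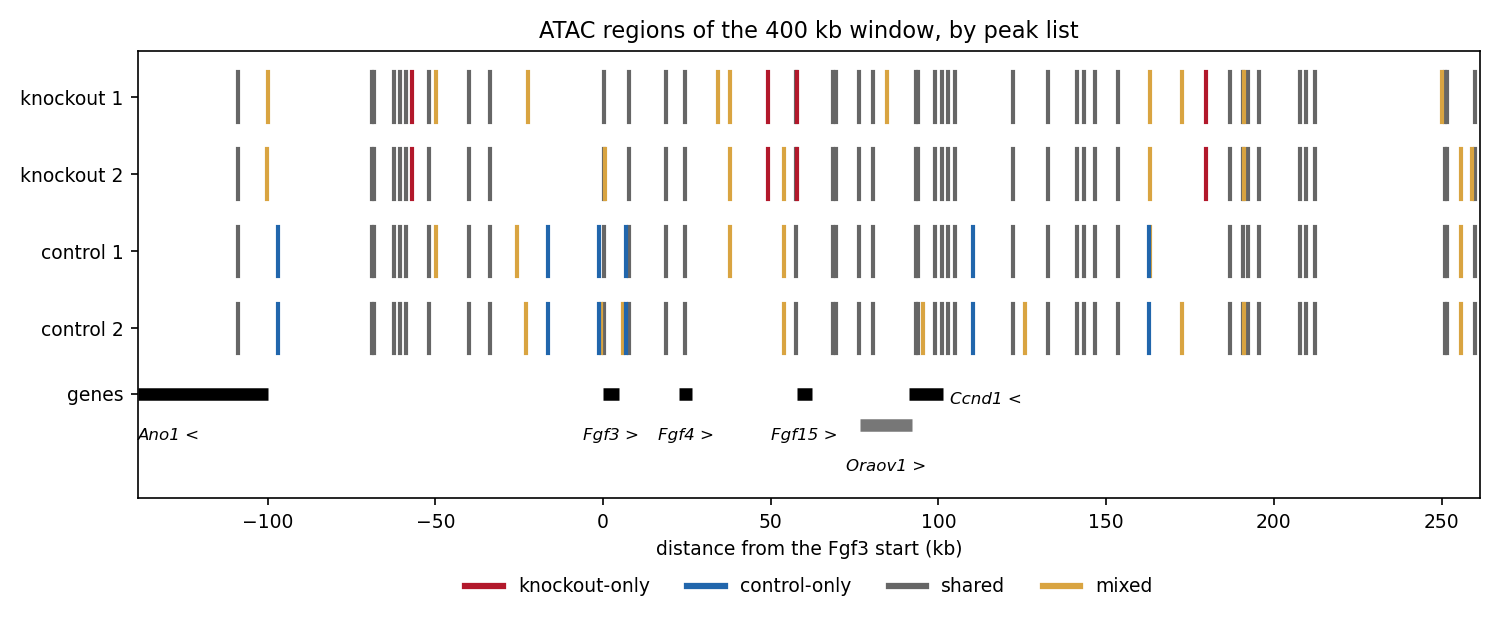
Regions of open chromatin in each of the 2 knockout (top) and 2 control peak lists, against the distance from the Fgf3 start in kb, coloured by class, with the gene models below and their direction of transcription marked by > or <. Blue control-only bars flank Fgf3 at −16.5, −1.2 and 6.9 kb, and the body and promoter of Ccnd1 hold grey shared regions.

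Fgf3 thus had 3 control-only regions and no knockout-only region, beside 4 shared regions and 7 in other combinations of lists. The strongest, chr7:144837228-144837682, lies between genes 1.16 kb upstream of the Fgf3 start. It had no peak in either knockout list and −log10 q of 65.9 and 69.8 in the control lists, with fold enrichments of 9.84 and 9.89. Those values were well above the median peak of the same lists, whose −log10 q was 22.6 and 22.8. The second, chr7:144821899-144822347, lies 16.5 kb upstream and had no peak in either knockout list and −log10 q of 48.1 and 42.6 in the control lists. The third, chr7:144845336-144845610, lies 6.86 kb downstream of the start and beyond the gene's end, and was weaker, with no peak in either knockout list and −log10 q of 10.7 and 13.8 in the control lists.

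Chromatin just inside the start of Fgf3 was open in both genotypes. The region chr7:144838631-144839115 begins just inside the gene, whose start is at 144838612, and covers the last 31 bases of the promoter shown above. It had −log10 q of 24.3 and 25.4 in the knockout lists and 19.5 and 21.1 in the control lists. Its fold enrichments were 7.68 and 8.09 in knockout and 5.05 and 5.08 in control. The knockout values were not below the control values, while the RNA of the gene was 12.4-fold lower. Both measures are taken over local background, which was not compared between the lists. They therefore do not rank how open this region was in each genotype. Within each control list the region 1.16 kb upstream was the stronger one, and in the knockout lists only the region just inside the gene was present.

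Further from the gene, shared regions followed both patterns. At chr7:144804787-144805126, 33.7 kb upstream of Fgf3, the −log10 q was 8.14 and 6.77 in the knockout lists and 19.2 and 23.7 in the control lists. At chr7:144846198-144846480, 7.73 kb downstream of the start, it was 11.2 and 19.0 in the knockout lists and 7.30 and 7.22 in the control lists. With only peaks of −log10 q of at least 10, the upstream region became control-only and the downstream one knockout-only, whereas the 3 control-only regions of Fgf3 kept their class.

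**Figure D4:**
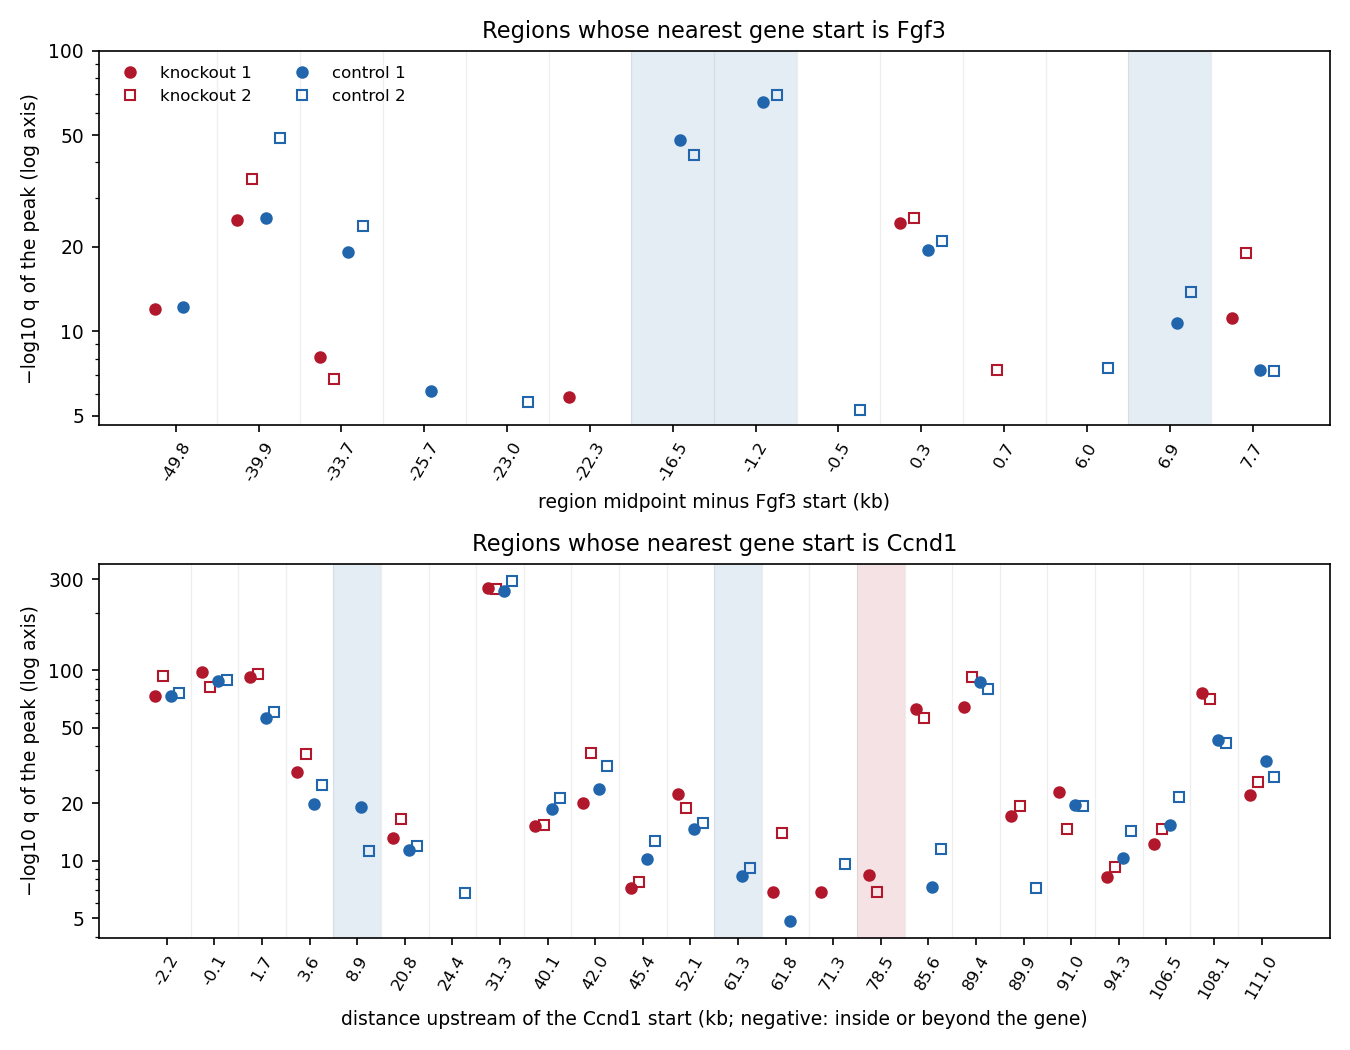
The −log10 q of the peaks (log axis) in the 2 knockout (red) and 2 control (blue) lists for each region nearest to the Fgf3 start (above) and the Ccnd1 start (below), with regions placed in order and labelled by distance in kb, and control-only and knockout-only regions shaded blue and red. The control-only regions of Fgf3 at −16.5 and −1.2 kb reach 42.6 to 69.8, whereas the control-only and knockout-only regions of Ccnd1 stay below 20 and its start region lies between 81.9 and 97.5 in all 4 lists.

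Around Ccnd1 the chromatin was mostly shared. Of the 24 regions with Ccnd1 as the nearest start, 17 were shared, 1 was knockout-only, 2 were control-only and 4 were in other combinations. The region over the Ccnd1 start, chr7:144939622-144939970, had −log10 q of 97.5 and 81.9 in the knockout lists and 88.2 and 88.7 in the control lists, with overlapping values. The strongest region of the window, chr7:144970920-144971453, lies 31.3 kb upstream of Ccnd1 and had −log10 q of 272 and 269 in the knockout lists and 261 and 296 in the control lists, also overlapping. A further 3 regions inside the Ccnd1 model, 2 of them shared, were nearer to the start of a 20-base model that the files name Mir3962. RefSeq places that name on chromosome 1, so no value of it is read here.

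The control-only regions nearest to Ccnd1 lie 8.85 kb and 61.3 kb upstream of it. At the closer, chr7:144948663-144948893, there was no peak in either knockout list and the −log10 q was 19.2 and 11.3 in the control lists. The knockout-only region nearest to it, chr7:145018239-145018523, lies 78.5 kb upstream and had −log10 q of 8.39 and 6.89 in the knockout lists and no peak in either control list. The control-only region 61.3 kb upstream had −log10 q of 8.30 and 9.14 in the control lists. Ccnd1 RNA was thus higher in knockout beside 2 control-only regions and 1 knockout-only region, all below the median peak of their lists. With only peaks of −log10 q of at least 10, the regions 61.3 kb and 78.5 kb upstream were absent. Among the shared regions, chr7:145025330-145025798, 85.6 kb upstream, had −log10 q of 62.9 and 56.2 in the knockout lists and 7.29 and 11.5 in the control lists. Nearer to the gene, chr7:144941414-144941794, 1.68 kb upstream, had −log10 q of 92.0 and 95.4 in the knockout lists and 56.0 and 60.3 in the control lists. The opposite order was found too, as at chr7:144985180-144985405, 45.4 kb upstream, with −log10 q of 7.23 and 7.72 in the knockout lists and 10.2 and 12.7 in the control lists. Over the 17 shared regions, both knockout lists lay above both control lists in 6, below them in 5 and overlapped them in 6, on scales that are those of the separate lists.

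Open regions also lay at the genes with little RNA. Inside Fgf4, chr7:144862741-144863068 was a shared region, with −log10 q of 67.2 and 66.2 in the knockout lists and 75.3 and 93.3 in the control lists, while no region overlapped the Fgf4 promoter. Fgf15 had a shared region 0.523 kb upstream, with −log10 q of 44.8 and 30.3 in the knockout lists and 44.6 and 41.4 in the control lists. Over its start lay a knockout-only region, chr7:144896455-144896716, with −log10 q of 6.18 and 7.37 in the knockout lists and no peak in either control list. A second knockout-only region, chr7:144887750-144887986, lay 8.66 kb upstream of Fgf15, with −log10 q of 8.94 and 12.1 in the knockout lists and no peak in either control list. Fgf15 RNA was at 0 in one library of each genotype all the same. All 4 knockout-only regions of the window were weak within their lists, at −log10 q between 6.18 and 16.0 against medians of 21.3 and 21.4.

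For comparison, 13191 tested genes with a single gene model were sorted by the regions nearest to their start. A control-only region was nearest to 31.4% of the 1934 genes lower in knockout, 18.7% of the 3326 higher genes and 21.1% of the 7931 genes not called, against 22% of all. At least 3 control-only regions, the number that Fgf3 had, were found for 5.43% of the lower genes, 1.32% of the higher genes and 2.17% of all. A knockout-only region was nearest to 31.5% of the lower genes, 30.3% of the higher genes and 28.7% of all. Of the 473 genes higher by at least 1 on the log2 scale, as Ccnd1 was, 46.3% had a knockout-only region and 22.2% a control-only region. Of the 94 genes lower by at least 2, as Fgf3 was, 36.2% had a knockout-only region and 40.4% a control-only region. These limits and the number 3 were set after values were seen, and genes that share a neighbourhood are not independent, so these shares are a description. Fgf3, which was lower, had control-only regions and no knockout-only region. Ccnd1, which was higher, had 2 control-only regions and 1 knockout-only region. That contrast depended on the peak threshold. With only peaks of −log10 q of at least 10, regions of both classes lay nearest to each of these genes. Most lower genes had no control-only region as neighbour.

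Other FGF ligand genes were mostly silent. Of 19 others listed, 3 had a mean of at least 1 TPM, of which 1 rose and the other 2 did not pass. The share that rose, 33.3%, was near the 25.2% of all tested genes. Fgf7, the keratinocyte growth factor made by mesenchymal cells, rose to 20.4 and 15.1 TPM in knockout, against 10.5 and 8.53 TPM in control (difference 0.83, SE 0.18, limma adjusted p = 0.0187), a call that was lost without knockout replicate 1, control replicate 1 or control replicate 2 (adjusted p = 0.0575 to 0.104). Fgf11, an intracellular member of the family, and Fgf22 had differences of 0.01 and 0.42. In control, Fgf3 was thus at a higher TPM than Fgf7 in both libraries, and in knockout at a lower one.

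All 3 tested receptor genes of 7 FGF receptors and co-receptors rose, against 25.2% of all tested genes. Fgfr2 rose to 10.9 and 7.12 TPM in knockout, against 2.30 and 2.05 TPM in control (difference 1.63, SE 0.23, limma adjusted p = 0.00473). Fgfrl1, a receptor without a kinase domain, rose by 0.60 and Fgfr1 by 0.58, and Fgfr1 lost its call in 6 alternatives (adjusted p = 0.0515 to 0.149), both other scalings among them, and Fgfrl1 without control replicate 1 (0.0525). Fgfr4 was listed at 0 in every library, and Klb, the co-receptor that FGF15 needs, stood at 0.368 and 0.178 TPM in knockout and at 0.0362 and 0.465 TPM in control.

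Of 9 adaptor genes below the receptors, 1 rose, 1 fell and 7 did not pass, or 11.1% in each direction against 25.2% higher and 14.7% lower of all tested genes. Plcg1, a phospholipase, fell to 80.2 and 78.9 TPM in knockout, against 117 and 122 TPM in control (difference −0.58, SE 0.050, limma adjusted p = 0.00112). Shc1 rose by 0.25 (adjusted p = 0.0324), a call lost in 7 alternatives, and Grb2 and Ptpn11 had differences of −0.33 and 0.45 and did not pass. Grb2 passed as lower after median-ratio scaling (limma adjusted p = 0.0284) and in 4 other alternatives.

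Of 11 tested genes of FGF/ERK response and feedback, 4 rose, 2 fell and 5 were not called (36.4% and 18.2%, against 25.2% higher and 14.7% lower of all tested genes). The list's median log2 difference was 0.29, against 0.09 over all genes. The transcription factor genes Etv5 and Etv4 rose, Etv5 to 27.5 and 24.3 TPM in knockout against 7.09 and 7.68 TPM in control (difference 1.68, SE 0.12, limma adjusted p = 0.000676), and Etv4 by 1.94. Dusp5, a phosphatase of nuclear ERK, fell to 77.2 and 74.4 TPM in knockout, against 192 and 180 TPM in control (difference −1.28, SE 0.054). Spred3, an inhibitor of the pathway, fell by 0.89 on the log2 scale, and this call was lost without knockout replicate 2 or either control replicate (adjusted p = 0.0576 to 0.108). The Sprouty gene Spry2 stood at 6.35 and 8.42 TPM in knockout and at 8.42 and 6.36 TPM in control.

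Among the partners and inhibitors of cyclin D, 3 of 11 tested genes rose, 3 fell and 5 did not pass. The share that rose, 27.3%, was near the 25.2% of all tested genes, and the share that fell, also 27.3%, compares with 14.7%. Ccnd2, the most similar cyclin, rose to 137 and 133 TPM in knockout, against 75.2 and 74.0 TPM in control (difference 0.84, SE 0.048, limma adjusted p = 0.000432). Ccnd3 had a difference of 0.16 and did not pass. Of the 3 cyclin D genes Ccnd1 had the lowest TPM in every library. The falls were in the kinase gene Cdk6 (difference −0.42) and in the inhibitor genes Cdkn1b (−0.65) and Cdkn2d (−0.92). Cdkn2d stood at 19.5 and 17.5 TPM in knockout and at 38.7 and 33.3 TPM in control.

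Targets of E2F at the entry into DNA replication were higher almost throughout. Of 16 tested genes, 15 rose and 1 fell (93.8% and 6.25%, against 25.2% and 14.7% of all tested genes). The list's median log2 difference was 0.63, against 0.09 over all genes. Ccne2, cyclin E2, had the largest difference at 0.97, a call lost without knockout replicate 1 or 2 (adjusted p = 0.0720 and 0.0623). Tyms, thymidylate synthase, rose by 0.82 and Mcm2, a subunit of the replicative helicase, by 0.79. The single fall was E2f2, picked after its value was seen, with a difference of −0.62, and its call was lost with no filter on low values, without knockout replicate 1 and without either control replicate (limma adjusted p = 0.0539 to 0.106).

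**Figure D5:**
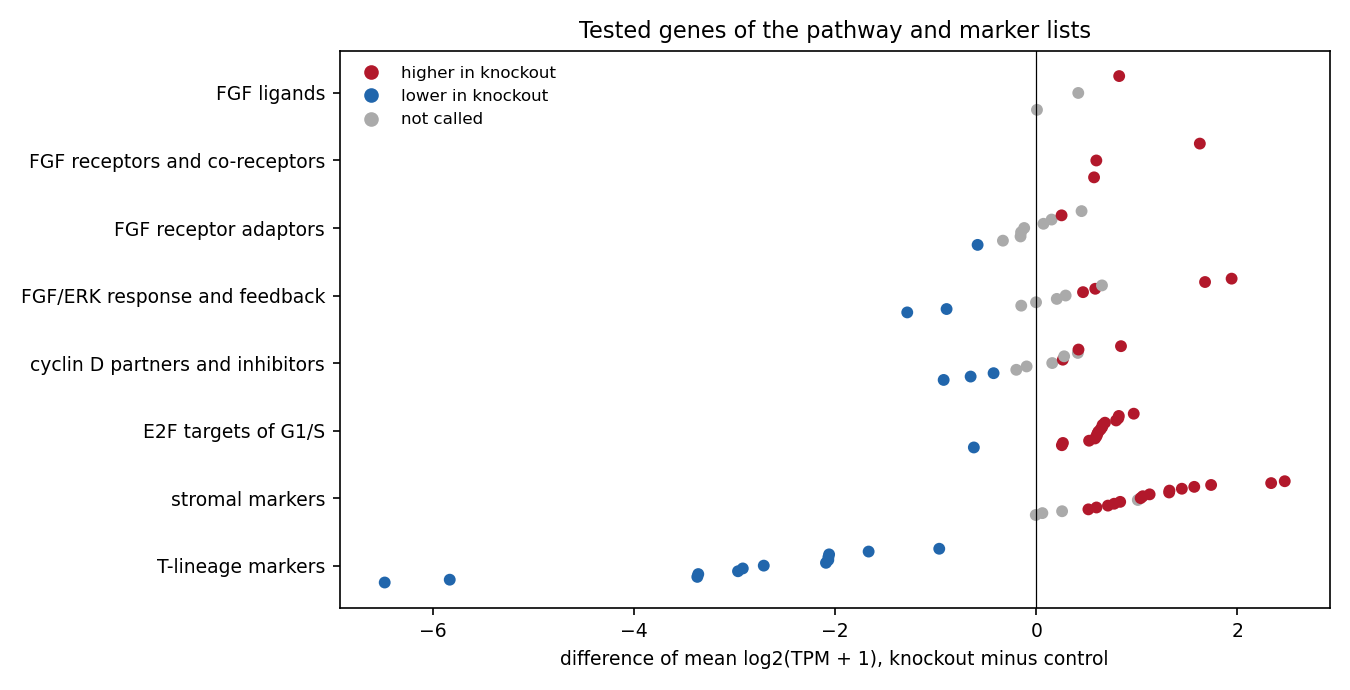
Difference of mean log2(TPM + 1), knockout minus control, for each tested gene of 6 pathway lists and 2 marker lists (1 point a gene), with red and blue points for genes higher or lower in knockout by the limma test and grey points for the rest. E2F targets lie to the right except E2f2, FGF ligand and receptor genes lie at or right of 0, and the adaptor, ERK and cyclin D lists spread to both sides, stromal markers lie at or right of 0 and T-lineage markers lie left of 0.

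Markers of other cells moved with these differences. Of 19 tested stromal markers, 15 rose, 0 fell and 4 did not pass. The share that rose was 78.9%, and over all tested genes 25.2% were higher and 14.7% lower. The list's summed level was 2777 and 2279 TPM in knockout and 1237 and 1258 TPM in control. Of 21 stromal markers, Dcn was listed at 0 in every library and Lum in 3 of them. The summed level of the adipocyte list was 293 and 283 TPM in knockout and 85.7 and 73.0 TPM in control, with 6 of 7 tested genes risen (85.7%). The mast cell and basophil list summed to 636 and 648 TPM in knockout and 276 and 269 TPM in control. In it 11 of 12 tested genes rose (91.7%) and 1, Cpa3, fell (difference −0.33). The myeloid list summed to 3121 and 3053 TPM in knockout and 1546 and 1516 TPM in control, with 6 of 10 risen (60%), 1 fallen (10%) and 3 not called. Most of each sum was Mpo, at 2256 and 2196 TPM in knockout and 980 and 979 TPM in control. The B-lineage list stood at 26.7 and 23.3 TPM in knockout and 15.2 and 15.7 TPM in control, with 1 of 2 tested genes risen. The erythroid and megakaryocyte list, at 294 and 286 TPM in knockout and 329 and 242 TPM in control, overlapped. Of its 7 tested genes 3 rose (42.9%), 1 fell (14.3%) and 3 were not called. The higher Ccnd1, Fgf7 and FGF receptor RNA stands beside these, and their part in the result was not tested. Of 13 tested T-lineage markers all fell, against 14.7% of all tested genes. Their list had a summed level of 83.8 and 88.7 TPM in knockout and 657 and 652 TPM in control. Cd3e, a defining marker, was at 0 in both knockout libraries. The lower Fgf3 RNA stands beside that, and its part in the result was not tested. In such bulk libraries fewer cells of a type and less RNA per cell cannot be told apart, and the same holds for the open regions.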

How the data were processed

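Per the submitters' processing notes, HISAT2 and StringTie handled the RNA reads and Bowtie2 and MACS2 the ATAC reads, with mm10 as the build; versions were not listed there. The deposited TPM values sum to 1000000 in each library. The deposited FPKM was used as an alternative, and the deposited coverage signal (reads per base) gave the depth behind a gene. Read counts were not used. The authors called peaks in each ATAC library separately, and each deposited peak has a fold ratio over background and a −log10 p and −log10 q. The display score deposited by the authors was not used.

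Entries of a gene ID were summed. Genes with a mean of at least 1 TPM were compared on log2(TPM + 1), which understates changes of low genes, with limma 3.58.1 (R 4.3.3, trended eBayes, two-sided) and genotype as the only term. The code was tested on simulated data. Peaks sharing at least 1 base were merged across lists, and regions were assigned by midpoint to the nearest gene start. Figures used matplotlib 3.10.9. Named were the 4 genes, the models in the window, the nearest expressed genes on each side (up to 3), the 4 largest differences of each pathway list and the 3 genes most like each member. One gene that the rule names is not reported here. Genes named outside this rule were picked after their values were seen. Members and lists were chosen with earlier results of these data known. Motifs in the open regions were not analysed here. Alternatives changed the scaling, pseudocount, unit, filter, replicates, peak threshold and overlap.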

Additional observations from a re-analysis of the deposited data

How the results depend on the processing

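The difference of Fgf3 was −3.63 on the log2 scale after quantile normalization, −3.63 with a pseudocount of 0.1 and −3.45 from FPKM, each further from the reported −3.53 than the spread between replicates. The differences of Ccnd1, Fgf4 and Fgf15 moved by less than that spread in the 9 alternatives run for each, although those of Fgf4 and Fgf15 changed sign when single libraries were left out (−0.20 to 0.33 and −0.11 to 0.33). Leaving out each replicate in turn gave 1088 to 1450 lower and 2005 to 2242 higher genes, 1 to 2 lower genes within 1 Mb of the window, 5 to 9 knockout-only and 6 to 11 control-only regions in the window, where a class then rests on fewer lists. With a −log10 q of at least 10 there were 2 knockout-only regions in the window, neither among the 4 reported, and 8 control-only regions.

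The replicate numbers are shared by the groups, but the same-numbered RNA libraries did not deviate together (r = 0.00432 across 13228 genes, which are not independent). With the replicate number as a block, 1798 genes were lower and 3072 higher, and 2 genes within 1 Mb were lower. Over the 12 counts of the pathway lists, 106 of 132 alternative values lay within 1.5 times the reported count. With 2 libraries a group, unknown ATAC depth and no read counts, differences in weak regions and in genes under 1 TPM were not detectable.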
